A study of Mus musculus with 4 samples.

Results

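Cycling tumor epithelial cells were the epithelial barcodes of the 4 mammary tumor libraries that carried transcripts of the cell division program. They were selected on measured values. A barcode needed at least 2000 unique molecular identifiers (UMIs, each marking 1 captured RNA molecule) and at most 20% mitochondrial UMIs. Per 10000 UMIs it needed at least 10 UMIs of Epcam, Krt8 and Krt18 together, no UMI of the leukocyte gene Ptprc, and at least 5 UMIs of Mki67, Top2a, Birc5, Cdk1 and Ube2c together, with at least 2 of these 5 genes detected. Of 20892 barcodes within the depth and mitochondrial limits, 8788 were epithelial and 1035 of those passed the gate. They were compared with the 5456 epithelial cells of the same libraries in which all 5 genes were at 0, called all-0 cells here.

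The 4 libraries came from PyMT littermates on a C57BL/6 background, 1 mouse per library, taken at the endpoint of 17 to 18 weeks. All 4 mice carried the PyMT oncogene and loxP-flanked Frmd8 alleles (Frmd8fl/fl). Replicates 1 and 3 were MMTV-Cre-; Frmd8fl/fl; PyMT (Cre-) and replicates 2 and 4 were MMTV-Cre+; Frmd8fl/fl; PyMT (Cre+), in which Cre under the MMTV promoter deletes exons 4 to 6 of Frmd8 in luminal epithelium. Other cells of a Cre+ tumor are not the target of this Cre. Each library was made from sorted viable cells of 1 tumor-bearing mouse, and each run of 4 values below goes from the Cre- mice (replicates 1 and 3) to the Cre+ mice (replicates 2 and 4).

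A dividing cell copies its DNA in S phase and then, in G2 and mitosis, condenses, aligns and separates the chromosomes. E2F transcription factors drive many genes of replication, and the MuvB complex, joined first by MYBL2 and then by FOXM1, drives many genes of mitosis. The gate genes belong mostly to the later phases. Mki67 encodes Ki-67, which coats mitotic chromosomes, Top2a encodes the topoisomerase that untangles them, Birc5 encodes survivin of the chromosomal passenger complex, Cdk1 encodes the mitotic kinase and Ube2c encodes the ubiquitin-conjugating enzyme of the anaphase-promoting complex. In the mammary gland, luminal progenitor, alveolar and hormone-sensing cells form the luminal layer and basal cells the outer one.

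Promoters of mitotic and replication genes are known to carry certain short motifs. The letters CCAAT (the NF-Y box), TTTGAA (the cell cycle genes homology region, CHR) and TTTGGCGC or TTTCCCGC (E2F) were searched on both strands in the 250 bases before the transcription start in RefSeq promoters of build GRCm38.p6. Matches on opposite strands may overlap, as in the CCAATTGG of Ube2c, where 1 such pair counts as 2 matches. Of 67 genes on a G2/M list, 56 had a promoter in the table, and 76.8% of them held an NF-Y box, 33.9% a CHR and 5.36% an E2F match. Of 50 genes on an S phase list, 37 had a promoter, and 62.2%, 13.5% and 18.9% held these matches. Among all 27025 promoters the shares were 34.5%, 16.3% and 1.35%. An NF-Y box and a CHR together stood in 28.6% of the G2/M promoters and in 5.73% of all promoters. A match describes letters and is not a binding site. The sequences of the 5 gate genes are shown because the gate rests on them, and that of Mcm6, a subunit of the replicative helicase, as the S phase example. Capitals mark the matches.
Ube2c, chr2:164769679-164769928, plus strand: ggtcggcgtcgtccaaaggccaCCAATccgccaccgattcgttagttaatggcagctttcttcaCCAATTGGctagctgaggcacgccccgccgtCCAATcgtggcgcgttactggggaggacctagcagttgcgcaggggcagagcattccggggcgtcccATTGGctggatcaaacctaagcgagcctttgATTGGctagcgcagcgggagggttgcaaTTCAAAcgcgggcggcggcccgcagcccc
Cdk1, chr10:69352913-69353162, minus strand: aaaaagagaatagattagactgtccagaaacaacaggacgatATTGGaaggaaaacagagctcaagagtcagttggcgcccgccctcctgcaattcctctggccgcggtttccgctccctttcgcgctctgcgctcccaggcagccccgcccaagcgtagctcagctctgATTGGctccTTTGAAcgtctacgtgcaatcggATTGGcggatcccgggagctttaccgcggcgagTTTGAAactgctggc
Top2a, chr11:99024190-99024439, minus strand: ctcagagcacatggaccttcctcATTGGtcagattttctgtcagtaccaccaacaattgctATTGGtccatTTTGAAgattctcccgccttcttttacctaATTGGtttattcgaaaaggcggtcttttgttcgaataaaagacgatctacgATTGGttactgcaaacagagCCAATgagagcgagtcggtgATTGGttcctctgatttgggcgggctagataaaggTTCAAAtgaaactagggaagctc
Mki67, chr7:135716380-135716629, minus strand: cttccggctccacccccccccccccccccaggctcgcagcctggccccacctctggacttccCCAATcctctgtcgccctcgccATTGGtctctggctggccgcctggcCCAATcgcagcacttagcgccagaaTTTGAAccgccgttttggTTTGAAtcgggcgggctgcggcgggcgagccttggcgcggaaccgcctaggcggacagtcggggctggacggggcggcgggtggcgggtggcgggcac
Birc5, chr11:117848987-117849236, plus strand: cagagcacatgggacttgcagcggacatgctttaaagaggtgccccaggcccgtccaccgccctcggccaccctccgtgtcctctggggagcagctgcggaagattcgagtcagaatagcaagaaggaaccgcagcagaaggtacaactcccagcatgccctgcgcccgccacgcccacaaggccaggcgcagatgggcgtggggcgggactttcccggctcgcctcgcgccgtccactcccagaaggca
Mcm6, chr1:128359706-128359955, minus strand: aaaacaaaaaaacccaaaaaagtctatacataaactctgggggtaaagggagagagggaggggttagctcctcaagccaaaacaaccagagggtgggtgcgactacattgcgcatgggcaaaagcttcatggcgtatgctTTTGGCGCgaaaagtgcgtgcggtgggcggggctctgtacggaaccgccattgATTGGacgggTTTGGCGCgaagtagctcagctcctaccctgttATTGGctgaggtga
Ube2c held 6 NF-Y matches and 1 CHR, Cdk1 held 3 and 2, Top2a held 6 and 2, and Mki67 held 3 and 2. Birc5 held none of the 3 motifs in this window, and Mcm6 held 2 NF-Y and 2 E2F matches.

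The libraries held between 112729231 and 157662955 UMIs. The matrices of replicates 1 to 3 hold called cells, whereas that of Cre+ replicate 4 holds all barcodes and comes from another Cell Ranger version, so the form of the file, the version and the genotype cannot be told apart for that library. Pairs of libraries shared 8 to 14 barcodes, and no shared barcode was a cycling cell. Frmd8 in the cycling cells was 21.2, 21.1, 3.55 and 5.24 CPM (the UMIs of a gene scaled to a common total of UMIs). The libraries read the 3' end of transcripts and the deleted exons lie inside the gene, so this level does not read the deletion itself. Doublets were not removed, and Ptprc-positive cells with epithelial transcripts that would have passed the gate numbered 19, 72, 11 and 45.

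The cycling cells made up 7.31% of the epithelial cells in Cre- replicate 1 (156 of 2135, 95% exact binomial interval 6.24 to 8.49), 13.6% in Cre- replicate 3 (276 of 2024, 12.2 to 15.2), 5.36% in Cre+ replicate 2 (120 of 2239, 4.46 to 6.37) and 20.2% in Cre+ replicate 4 (483 of 2390, 18.6 to 21.9). The lowest and the highest share both belonged to Cre+ mice, and the Cre- mice lay between them. These intervals cover counting error only. The mean share was 10.5% ± 4.48 (SD, n = 2) without Cre and 12.8% ± 10.5 (SD, n = 2) with it. They differed by 2.31 points (exact two-sided permutation test over mice, p = 1, where the smallest possible p is 0.333). Without Cre+ replicate 4 the difference was -5.11 points, and without Cre- replicate 1 it was -0.852 points, so the direction turned. With every cell thinned to 2000 UMIs and all cells kept, the shares were 4.68%, 9.73%, 4.29% and 15.8%. That left the order of the libraries as it was.

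**Figure D1:**
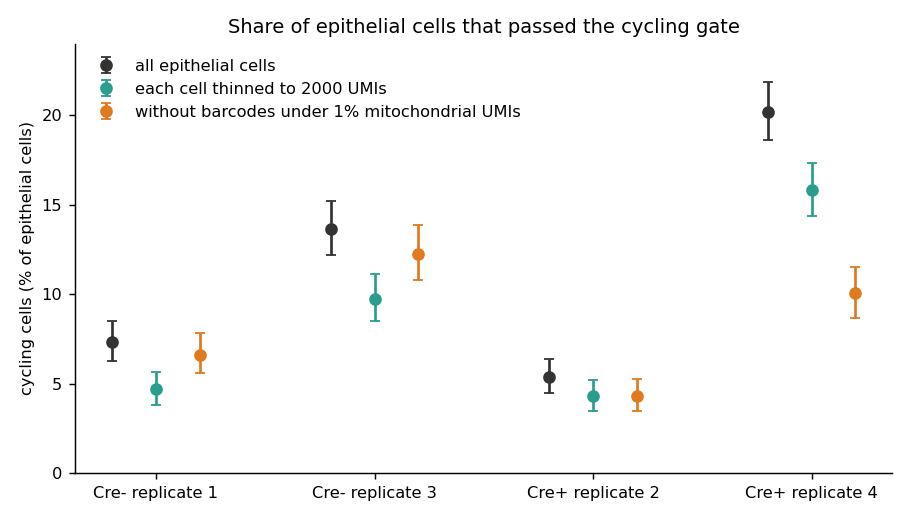
Share of epithelial cells that passed the cycling gate in each library (percent, y axis), for all epithelial cells, after thinning each cell to 2000 UMIs, and without barcodes under 1% mitochondrial UMIs. Points are shares and bars are 95% exact binomial intervals; Cre+ replicate 4 moved from 20.2% to 10.0% without the low-mitochondrial barcodes, and Cre- replicate 3 moved from 13.6% to 12.3%.

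The gate had a soft edge. The cells just inside it held 5.0055, 5.0055, 5.0146 and 5.0025 gate UMIs per 10000, and those just outside held 4.9988, 4.73, 4.94 and 4.95. Between 5 and 6 per 10000 lay 17, 14, 5 and 16 cycling cells, and 13, 13, 7 and 25 other epithelial cells lay between 4 and 5. All 5 genes were detected in 106, 164, 76 and 169 cycling cells and exactly 2 in 5, 25, 9 and 44. As a check on free RNA, neutrophil-like cells, which have left the cell cycle, passed the gene part of the gate in 1 of 176, 1 of 60, 0 of 24 and 1 of 58 cells. The 0 of 24 allows a share of up to 12.5% (3 counts of 24). Their median depth was 3714.5 to 3867 UMIs, below that of the cycling cells. Ptprc-positive cells outside the epithelium passed in 7.59%, 7.56%, 3.78% and 15.7%, and Cre+ replicate 4 was again the highest.

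The level of the gate genes within the cycling cells differed between libraries. Mki67 was 292, 331, 380 and 240 CPM and Top2a was 264, 300, 367 and 260 CPM, both lowest in Cre+ replicate 4. Birc5 was 389, 316, 382 and 532 CPM and Ube2c was 382, 543, 497 and 623 CPM, both highest in that library. Cdk1 was 203, 267, 285 and 287 CPM. These genes chose the cells, so their levels are a description. In the cycling cells with 1% mitochondrial UMIs or more, Cre+ replicate 4 was not the lowest in Mki67 (297, 342, 391 and 310 CPM) or Top2a (263, 303, 375 and 283 CPM), nor the highest in Ube2c (374, 503, 477 and 454 CPM). It was still the highest in Birc5 (387, 304, 363 and 460 CPM). Median depth was 58720.5, 20908.5, 28046.5 and 11830 UMIs in cycling cells and 15967, 15469, 11238 and 13349 in all-0 cells, so cycling cells were deeper in 3 of 4 libraries and shallower in Cre+ replicate 4. Shallow cells more easily hold 0 UMIs of all 5 genes, so the choice of all-0 cells bears on this depth. With the gate applied to thinned cells, the medians before thinning were 60509, 21361, 25575 and 10413 UMIs in cycling cells. They were 23153, 21571, 13694 and 16499 UMIs in all-0 cells, so cycling cells were then deeper in 2 of 4 libraries. The epithelial markers outside the gate were Cldn7, Cldn4 and Krt19. The tight junction gene Cldn7 stood at 373, 312, 335 and 406 CPM in cycling cells and 452, 414, 416 and 515 CPM in all-0 cells. Among cells with 1% mitochondrial UMIs or more, cycling cells held Cldn4 at 192, 184, 137 and 92.1 CPM. All-0 cells held it at 454, 399, 210 and 361 CPM. Krt19 in the same cycling cells was 845, 36.7, 1247 and 26.3 CPM, against 949, 78.6, 300 and 165 CPM in all-0 cells. Cldn4 was thus lower in cycling cells in all 4 libraries, and Krt19 was higher in Cre+ replicate 2 only.

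Part of the cycling barcodes held almost no mitochondrial RNA. Barcodes under 1% mitochondrial UMIs were 24 of 156, 59 of 276, 30 of 120 and 304 of 483 cycling cells, which is 15.4%, 21.4%, 25.0% and 62.9%. Among all-0 cells the shares were 7.24%, 13.5%, 6.40% and 16.5%, lower in all 4 mice. The median depth of the low-mitochondrial cycling barcodes was 7647, 8214, 6546 and 9515 UMIs, against 65203, 38272, 44585.5 and 49696 in the other cycling cells. Low-mitochondrial all-0 barcodes were shallower too, at 4503, 4234, 5079.5 and 5275.5 UMIs against 17753, 18464, 11838 and 15735 in the other all-0 cells. The library that stood apart in its cycling share was thus also the one in which most cycling barcodes lacked mitochondrial RNA. Without such barcodes the shares became 6.62%, 12.3%, 4.31% and 10.0%. The mean was then 9.45% ± 3.996 (SD, n = 2) without Cre and 7.18% ± 4.05 (SD, n = 2) with it, which differ by -2.27 points (exact two-sided permutation test, p = 0.667).

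**Figure D2:**
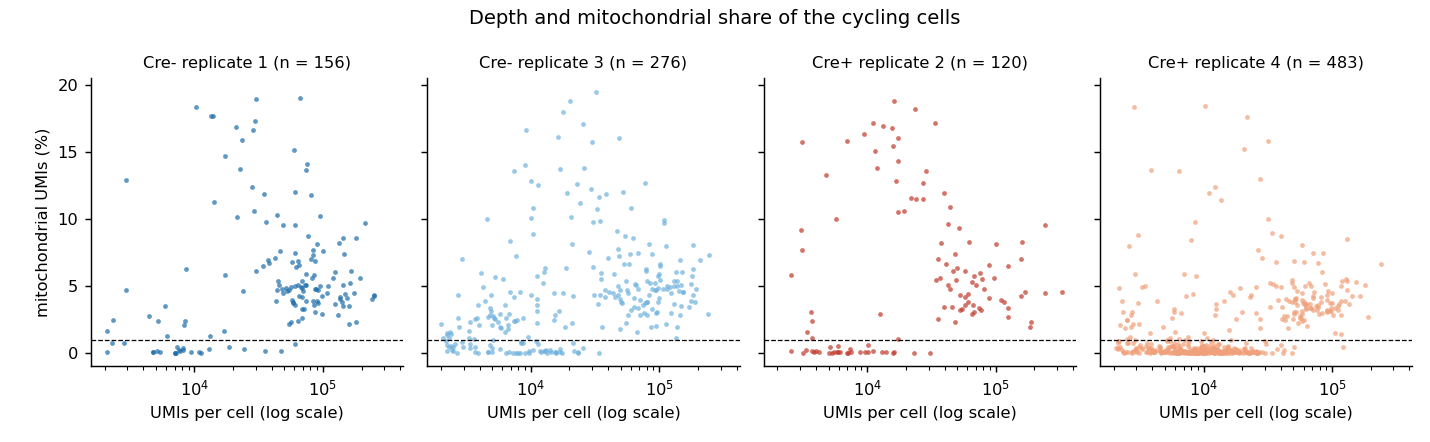
Each point is 1 cycling cell, with its UMIs on a log scale (x axis) and its mitochondrial UMIs in percent (y axis), 1 panel per library; the dashed line is at 1%. In Cre+ replicate 4, 304 of 483 cells lie under the line, against 24 of 156 in Cre- replicate 1.

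Some transcripts of the low-mitochondrial cycling barcodes were lower than in the other cycling cells in all 4 mice. The genes in this paragraph outside the gate and the lists (Malat1, Neat1, Kcnq1ot1, Gm42418) were named after their values were seen. The 3 named RNAs that are known to stay in the nucleus were low. Neat1, the scaffold RNA of paraspeckles, was 50.2, 17.7, 30.6 and 29.9 CPM in the low-mitochondrial barcodes and 673, 719, 751 and 966 CPM in the others, a ratio of 13.4 to 40.6. The imprinted antisense RNA Kcnq1ot1 was 6.28, 7.08, 11.5 and 4.31 against 160, 188, 158 and 129 CPM. Malat1, a nuclear speckle RNA, was 998, 774, 2419 and 688 against 4055, 5005, 6156 and 4237 CPM. Immediate-early genes were also lower, with the 19 genes of that list summing to 4729, 1914, 2277 and 1465 CPM against 10593, 7802, 11523 and 11834 CPM. Gm42418 was instead higher in all 4 mice, at 22207, 17635, 15894 and 5995 against 6296, 4136, 5280 and 2524 CPM. Low-mitochondrial all-0 barcodes differed the same way from the other all-0 cells. Malat1 was 5227, 2904, 5257 and 10491 CPM in them against 17082, 18653, 19649 and 14437 CPM. Their immediate-early sum was 8655, 7063, 8723 and 5999 against 17409, 14451, 15927 and 18605 CPM. Neat1, Kcnq1ot1 and Epcam were lower there too, in all 4 mice.

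Several mitotic genes were higher in the low-mitochondrial cycling barcodes. Cdc20, the activator of the anaphase-promoting complex, was 370, 411, 329 and 300 CPM in the low-mitochondrial barcodes and 187, 185, 173 and 167 CPM in the others. Ube2c was 628, 1390, 896 and 1076 against 374, 503, 477 and 454 CPM. Among the gate genes Top2a was higher in these barcodes in Cre- replicate 1 and lower in the other mice, and Mki67 was lower in all 4, at 132, 99.2, 157 and 54.7 against 297, 342, 391 and 310 CPM. The summed G2/M list was 9191, 10530, 11825 and 8246 against 6980, 8188, 8018 and 6328 CPM. Epcam was lower in these barcodes in all 4 libraries, at 1007, 790, 754 and 486 against 1793, 1493, 1434 and 1024 CPM, and in Cre- replicate 1 their markers of other cell types summed to 2335 CPM against 153 CPM, of which Col1a1, the fibroblast collagen, took 734 CPM. The part that depth and transcripts of other cell types had in these differences was not tested.

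**Figure D3:**
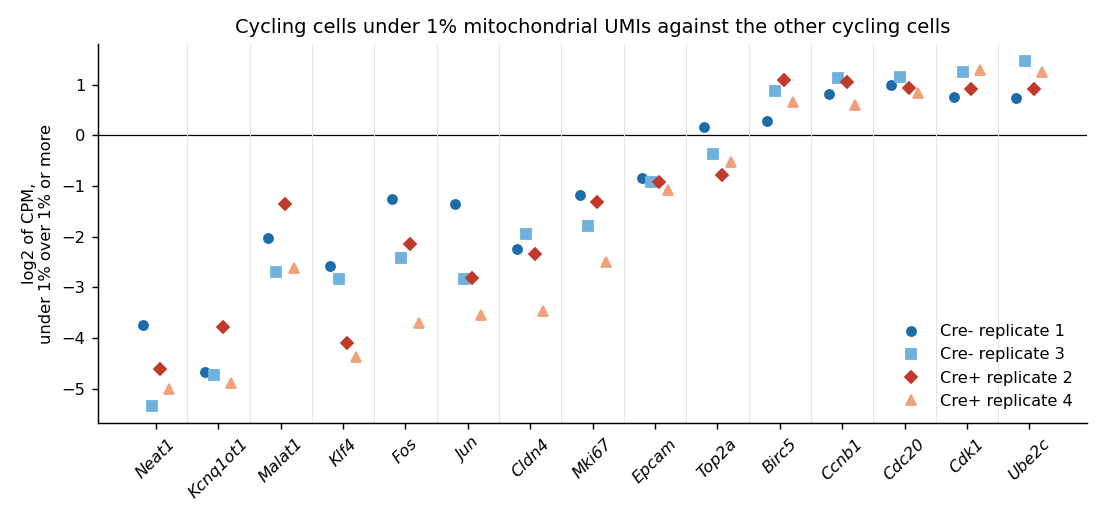
Ratio of CPM in cycling cells under 1% mitochondrial UMIs to CPM in the other cycling cells (log2, y axis) for 15 genes (x axis), 1 point per mouse. Neat1, Kcnq1ot1, Malat1, Klf4, Fos, Jun, Cldn4, Mki67 and Epcam lie below 0 in all 4 mice, and Birc5, Ccnb1, Cdc20, Cdk1 and Ube2c lie above 0 in all 4.

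Most cycling cells carried more G2/M than S phase transcripts. After thinning each cell to 2000 UMIs, the median cycling cell held 14, 15, 18.5 and 14 UMIs of the 67 G2/M genes and 5, 6, 6 and 6 UMIs of the 50 S phase genes, against 1 to 2 and 1 in all-0 cells. G2/M UMIs exceeded S phase UMIs in 86.5%, 85.1%, 80.8% and 77.8% of the cycling cells. The gate was built mostly on genes of the later phases, so it can miss cells early in S phase. The S phase list took 29.9%, 27.7%, 28.9% and 33.0% of the UMIs of both lists. The mean was 28.8% ± 1.59 (SD, n = 2) without Cre and 31.0% ± 2.91 (SD, n = 2) with it, which differ by 2.19 points (exact two-sided permutation test, p = 0.667). It was 4.25 points without Cre+ replicate 2, 3.31 without Cre- replicate 1, 1.07 without Cre- replicate 3, 0.131 without Cre+ replicate 4 and 0.592 within the study's limits. The 2 highest shares belonged to 1 mouse of each genotype. The study's limits were read here as keeping cells under 30000 UMIs with 200 to 5000 genes. Its text words these ranges as excluded, so this is a reading.

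Next, the summed counts of cycling and all-0 cells were compared within each mouse, to describe what else the cycling cells expressed. The cells were chosen on 5 cell cycle genes in these same counts, and the all-0 cells on the absence of those genes. The comparison is therefore a description of how alike the 4 mice were, and its calls support nothing on their own. Of 13560 genes outside the gate, 3120 passed an adjusted p of 0.05 with a higher level in cycling cells (23.0% of those tested) and 3037 with a lower level (22.4%), by the quasi-likelihood test of edgeR with the mouse as a block. The median log2 difference over all these genes was -0.07. Matching each cycling cell to the nearest free all-0 cell in depth and leaving out low-mitochondrial barcodes gave 2582 and 2399 genes. The match was incomplete. With equal cell numbers, the cycling sums held 9881968, 12070550, 5375855 and 9313967 UMIs. The all-0 sums held 8016145, 7498803, 4557747 and 8187756 UMIs. Matched depth below therefore means nearer and not equal depth. Log2 differences below are those of the fit, cycling over all-0. Their standard errors (SE) were derived from the F statistic of the fit, which shares information on spread across genes. They are not the spread of a single gene over the 4 mice.

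All 50 S phase genes and all 67 G2/M genes tested were higher in cycling cells, as the selection would set, with median log2 differences of 3.39 and 5.45 (2.72 and 4.78 with the gate applied to thinned cells). Summed over the list, G2/M genes stood at 7049, 8293, 8194 and 6849 CPM in cycling cells and 894, 1087, 925 and 887 CPM in all-0 cells. S phase genes stood at 3007, 3170, 3332 and 3377 CPM against 526, 507, 523 and 481 CPM. The 4 mice thus lay close together in both classes. Ccnb1, cyclin B1, was 103, 136, 114 and 149 CPM in cycling cells and 1.01, 1.66, 0.458 and 0.677 CPM in all-0 cells (log2 difference 7.14, SE 0.30). Rrm2, the small subunit of ribonucleotide reductase, was 116, 143, 120 and 272 CPM against 1.55, 2.05, 1.52 and 2.18 CPM (6.46, SE 0.18). Cre+ replicate 4 was the highest library in Rrm2. Hmgb2, a chromatin protein, was an abundant transcript at 1013, 1204, 1213 and 878 CPM in cycling cells and 73.7, 73.4, 56.8 and 91.6 CPM in all-0 cells.

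**Figure D4:**
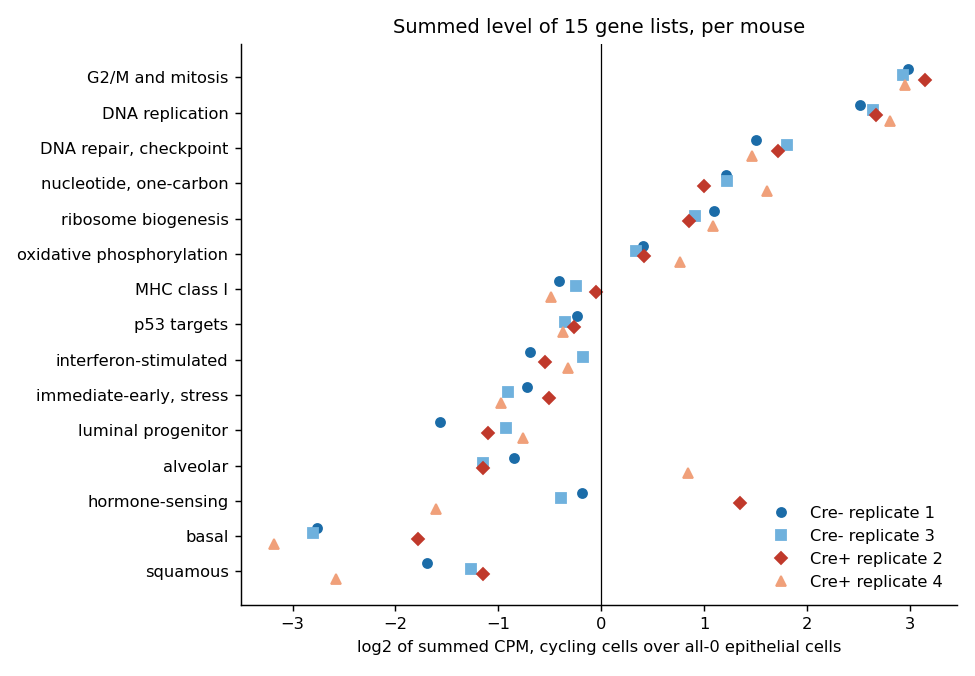
Summed CPM of 15 gene lists in cycling cells over the sum in all-0 cells of the same mouse (log2, x axis), 1 point per mouse and list. The G2/M and replication lists lie far to the right in all 4 mice (7049, 8293, 8194 and 6849 CPM against 894, 1087, 925 and 887 CPM for G2/M), and the luminal progenitor and immediate-early lists lie to the left in all 4.

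The genes outside every list with the largest differences were also of the division cycle. They were led by Esco2, the cohesin acetyltransferase of S phase, at 32.6, 33.6, 48.6 and 35.4 CPM in cycling cells (log2 difference 8.26, SE 0.33). With the gate applied to thinned cells, whose comparison cells then include some with gate transcripts, it was 5.84. Pclaf, a partner of the replication clamp PCNA, stood at 256, 348, 317 and 242 CPM (8.21, SE 0.21, and 5.10 with the thinned gate). Ska1 (8.03) and Knl1 (7.18), which act at the kinetochore, and the kinase gene Melk (6.62) followed. So did Cdkn3 (6.85), Cep55 (6.21) of the abscission machinery and Aspm (6.13) of the spindle pole. Most genes of histones and chromatin assembly were higher. Of 34 listed, 19 were found in the matrices and tested. Of these, 16 were higher and 1 lower, beside 23.0% and 22.4% of all genes. The replication-dependent Hist1h1b was 170, 259, 311 and 303 CPM in cycling cells and 4.65, 7.90, 8.25 and 8.43 CPM in all-0 cells (5.21, SE 0.10). The replacement variant H3f3a, made in all phases, was 1188, 1242, 1212 and 1114 CPM against 1258, 1281, 1190 and 1308 CPM (-0.03, SE 0.08). The kit primes on poly(A), and most replication-dependent histone RNAs lack it, so their absolute levels are not comparable with those of other genes.

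The upstream regulators differed among themselves, beside 23.0% higher and 22.4% lower over all genes. Of 20 genes of the E2F, MuvB and NF-Y machinery, 15 were higher in cycling cells and 0 lower. The repressor E2f8 (log2 difference 6.92, SE 0.46), Foxm1 (5.94, SE 0.17), E2f7 (5.75, SE 0.42), Mybl2 (4.71, SE 0.21) and E2f1 (3.76, SE 0.33) had the largest differences. Foxm1 was 21.0, 21.7, 27.1 and 18.9 CPM in cycling cells and 0.348, 0.39, 0.388 and 0.339 CPM in all-0 cells. The MuvB core genes Lin37 (-0.0033) and Lin52 (-0.11) did not pass the threshold, nor did E2f5 (-0.32) and Nfya (-0.25). Of 20 G1 regulators, 9 were higher and 6 lower, and the lower count is not far from the 22.4% over all genes. Ccnd1, cyclin D1, was higher by 1.16 (SE 0.20), Cdk4 by 0.91 and Cdk2 by 1.26. The inhibitor genes divided. Cdkn2c (1.89) and Cdkn2d (2.19) of the INK4 family and Cdkn2a (1.51) were higher, while Cdkn1a, which encodes p21, was 102, 113, 58.0 and 68.5 CPM in cycling cells and 137, 203, 101 and 186 CPM in all-0 cells (-0.83, SE 0.16). Cdkn1b (-0.49) and Cdkn2b (-1.21) were lower too. Of the pocket proteins, Rbl1 was higher (2.33) and Rb1 and Rbl2 were lower (-1.01 and -0.50). Without Cre- replicate 1 or Cre+ replicate 2, 3 of the 20 G1 regulators were lower, and without the block 1 was.

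Genes of growth and repair went with the cycle genes, beside 23.0% higher over all genes. Of 19 DNA repair and checkpoint genes, 17 were higher, with a median of 2.64. They included Brca1 (4.96, SE 0.33), Fanci (5.12, SE 0.36) and the checkpoint kinase gene Chek1 (4.08, SE 0.27). Of 27 genes of nucleotide synthesis and one-carbon metabolism, 26 were higher (median 1.37). Psat1 of serine synthesis was 57.8, 70.8, 60.8 and 114 CPM in cycling cells and 6.81, 8.88, 7.26 and 12.3 CPM in all-0 cells. All 24 ribosome biogenesis genes were higher (median 1.00), with Ran, the nuclear transport GTPase, at 2.17 and the spermidine synthase Srm at 1.81. Of 17 oxidative phosphorylation genes, 15 were higher (median 0.53), and 11 passed when low-mitochondrial barcodes were left out and depth was matched, and 9 without the replicate block. All of these genes are in the nuclear genome. The median mitochondrial share of all UMIs, which counts the mitochondrial genome, was lower in cycling than in all-0 cells in all 4 mice, at 4.73%, 3.81%, 4.45% and 0.386% against 6.74%, 5.40%, 8.04% and 3.81%.

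Most luminal progenitor genes were lower in the cycling cells, and fewer alveolar genes were, beside 22.4% lower over all genes. Of 14 luminal progenitor genes, 9 were lower and 0 higher (median -1.02). Cd14 was 56.9, 33.2, 61.6 and 39.5 CPM in cycling cells and 404, 161, 263 and 203 CPM in all-0 cells (-2.34, SE 0.14). The retinaldehyde dehydrogenase gene Aldh1a3 was 4.61, 5.30, 8.34 and 2.19 CPM against 28.9, 52.5, 21.2 and 25.7 CPM (-2.67, SE 0.34). Kit, the receptor tyrosine kinase that marks progenitors, was lower by 1.76 on the log2 scale (SE 0.19). The lineage factor Elf5 was not called, at 152, 209, 151 and 156 CPM against 274, 256, 225 and 132 CPM. Of 14 alveolar genes, 6 were lower (median -1.10). Their sum was 10683, 11373, 10593 and 6592 CPM in cycling cells and 19276, 25188, 23555 and 3673 CPM in all-0 cells, so it was higher in the cycling cells of Cre+ replicate 4. Spp1, osteopontin, was 213, 485, 158 and 4.30 CPM against 1905, 5247, 1148 and 42.8 CPM (-3.14, SE 0.12). The milk protein genes were uneven. Csn3 was 4674, 5962, 6331 and 5238 CPM in cycling cells and 11863, 13450, 15128 and 2507 CPM in all-0 cells, so it was lower in replicates 1 to 3 and higher in Cre+ replicate 4.

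Most squamous genes and a minority of basal genes were lower in cycling cells. Krt14 was 10.4, 4.27, 47.2 and 15.2 CPM against 48.8, 119, 81.2 and 647 CPM, and 5 of 15 basal genes were lower, beside 22.4% of all genes, and 1, Krt15, was higher. Without Cre- replicate 3 or without the block, 3 were lower. That count was 2 lower and 0 higher of 13 tested without low-mitochondrial barcodes and with depth matched. Of 9 squamous genes, 7 were lower (median -1.75). Dmkn was 6.67, 4.67, 8.34 and 137 CPM in cycling cells and 63.9, 19.6, 22.2 and 988 CPM in all-0 cells. Cre+ replicate 4 was the highest library in Dmkn in both classes. Without the replicate block, 0 of the squamous and 0 of the alveolar genes passed. The genes outside every list with the largest negative differences included Chrdl2 (-3.61), an antagonist of bone morphogenetic proteins, the carboxypeptidase gene Cpm (-3.30), and Chil1 (-3.23). Abca1 (-2.92), the cholesterol exporter, and the acute-phase gene Saa1 (-2.38) were also among them. Abca1 was 3.63, 7.20, 6.21 and 4.53 CPM in cycling cells and 38.2, 40.4, 36.7 and 49.7 CPM in all-0 cells. Wfdc12 (-2.35) lost its call in 8 of the 16 alternatives.

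The hormone-sensing genes split the mice in a way that genotype did not follow. In cycling cells Cited1, a transcriptional co-regulator of this lineage, was 182 and 307 CPM in Cre- replicate 1 and Cre+ replicate 2, and 0.871 and 1.02 CPM in Cre- replicate 3 and Cre+ replicate 4. Foxa1, the pioneer factor of estrogen receptor binding, was 37.6 and 43.6 CPM in the first pair and 0.554 and 0.156 CPM in the second, where few molecules stand behind each value. Pgr, the progesterone receptor gene, was 19.8 and 16.1 against 0.712 and 0.156 CPM, and Esr1 was 7.35 and 9.05 against 1.19 and 0.86 CPM. Krt19 was 827 and 1217 against 39.0 and 28.8 CPM, and the growth factor gene Areg 109 and 65.6 against 10.2 and 1.95 CPM. In each of these 6 genes both mice of the first pair lay above both mice of the second. The same mice differed in their all-0 cells, in which Cited1 was 68.6 and 14.4 CPM in the first pair and 6.54 and 0.263 CPM in the second. These pairs were seen in the data and were not tested.

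Within a mouse, cycling cells did not differ from all-0 cells in one direction for this lineage. Of 13 hormone-sensing genes tested, 0 passed in either direction (median -0.20), against 23.0% and 22.4% over all genes. Single genes went opposite ways in different mice. Cited1 was higher in cycling than in all-0 cells in Cre- replicate 1 (182 against 68.6 CPM) and in Cre+ replicate 2 (307 against 14.4 CPM), and lower in Cre- replicate 3 (0.871 against 6.54 CPM). The progenitor genes Ehf and Elf5 did not follow the split by pairs. Ehf was 256, 218, 299 and 433 CPM and Elf5 152, 209, 151 and 156 CPM in the cycling cells.

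**Figure D5:**
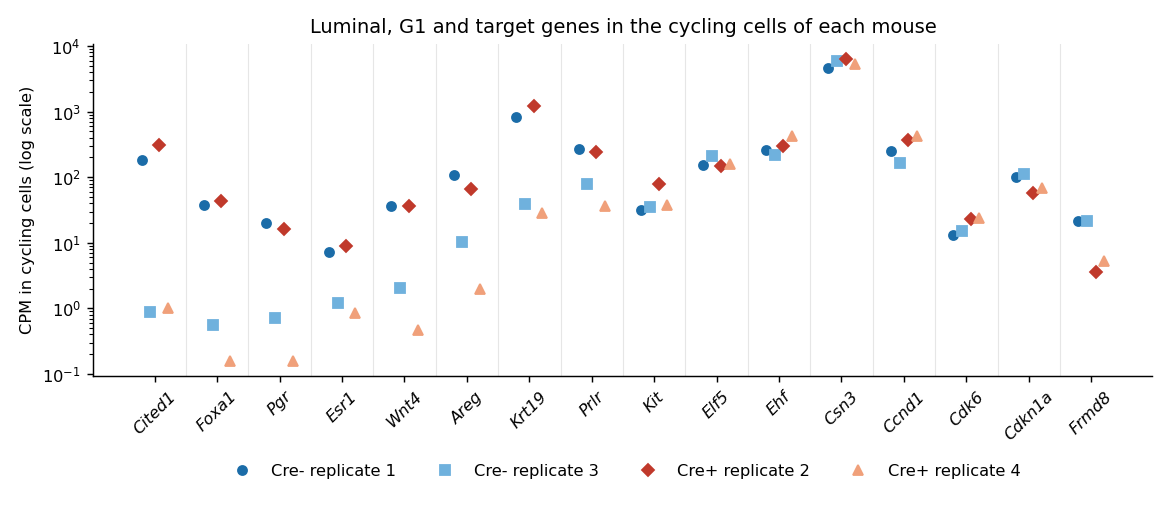
Level of 16 genes in the cycling cells of each mouse (CPM, log scale, y axis), 1 point per library. From Cited1 to Prlr, Cre- replicate 1 and Cre+ replicate 2 lie above the other mice, while Frmd8 and Cdkn1a are lower and Ccnd1 and Cdk6 higher in both Cre+ than in both Cre- mice.

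Immediate-early genes were mostly lower in cycling cells, and other response genes were divided, beside 22.4% lower and 23.0% higher over all genes. Of 19 immediate-early and stress genes, 17 were lower and 0 higher (median -0.78), and 17 also passed without low-mitochondrial barcodes and with depth matched (median -0.98). Without the replicate block 8 passed. Klf4 was 127, 48.6, 62.6 and 83.7 CPM against 323, 88.8, 125 and 637 CPM. Fos and Jun were lower by less, at -0.43 and -0.41. Of 21 hypoxia and glycolysis genes, 9 were lower and 3 higher. Vegfa (-1.71), Ndrg1 (-1.91) and Bnip3 (-1.48) were lower, while the glycolytic genes Tpi1 (0.43), Eno1 (0.48) and Pgam1 (0.50) were higher. Of 17 interferon-stimulated genes, 6 were lower, among them Irf7 (-1.10) and Ifit1 (-1.10). Of 11 genes of MHC class I presentation, 4 were lower and 1 higher, with B2m at -0.45 and the immunoproteasome gene Psmb9 at 0.76. Of 16 p53 targets, 7 were lower and 3 higher. Gadd45a (-1.46) and Trp53inp1 (-1.44) were lower, and Bax (0.34) and Aen (0.71) were higher. These smaller counts moved with single libraries. Without Cre- replicate 1 there were 0 MHC class I genes lower and 0 hypoxia genes higher, without Cre- replicate 3 there were 1 MHC class I gene and 4 p53 targets lower, without Cre+ replicate 2 there was 1 hypoxia gene higher, and without any 1 of replicates 1 to 3 there was 1 p53 target higher. Without the replicate block, 3 hypoxia, 1 interferon, 0 MHC class I and 2 p53 genes were lower and 0 of these lists were higher.

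Receptors and ligands of growth factors were lower rather than higher. Of 16 tested, 8 were lower and 1 higher (median -0.73), beside 22.4% and 23.0% of all genes. Egfr was 8.33, 11.8, 22.5 and 7.43 CPM in cycling cells and 31.5, 32.7, 58.6 and 15.8 CPM in all-0 cells (-1.41, SE 0.15). Its ligand gene Hbegf was 59.3, 51.7, 69.9 and 41.6 CPM against 195, 202, 120 and 305 CPM (-1.79, SE 0.30). The hepatocyte growth factor receptor gene Met (-1.05) and Fgfr1 (-0.86) were lower as well. The 1 higher gene was Tnfrsf11a (0.69), which encodes RANK, the receptor that relays progesterone signals to progenitors, and it was not called with depth matched. Without the replicate block 3 of the 16 were lower and 0 higher, and without any 1 of replicates 1 to 3 there were 0 higher. Of 8 genes around FRMD8, which stabilizes the iRhom and ADAM17 complex that sheds such ligands, 2 were lower and 0 higher. The lower count is near the 22.4% lower over all genes. The 2 were Rhbdf1 (-0.94, the gene of iRhom1) and Foxo3 (-0.86). Adam17 was 40.3, 36.8, 33.0 and 18.8 CPM against 33.3, 30.8, 32.0 and 22.7 CPM (0.13, SE 0.12).

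Among 29 markers of other cell types, 22 were tested, and 5 were lower (beside 22.4% of all genes) and 0 higher in cycling cells. Without any 1 of replicates 1 to 3, 1 was lower, and without the block 0 were. Their sum was 221, 521, 592 and 268 CPM in cycling cells and 476, 483, 604 and 539 CPM in all-0 cells. The T cell genes Cd3d, Cd3e and Cd3g and the B cell gene Cd79a were under 1.3 CPM in all 4 cycling sums. The part of such transcripts in the differences above was not tested. The study's limits on depth and genes per cell, as read here, remove 72.4%, 47.1%, 54.2% and 26.3% of the cycling cells. Within them 10 of 19 such markers tested were higher in cycling cells, beside 1935 of 11980 genes in that setting.

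Cre+ and Cre- mice were then compared within the cycling cells, a contrast that the gate did not use. Of 12972 genes tested, 0 passed an adjusted p of 0.05 (0.0%) in edgeR with n = 2 mice per genotype. At an unadjusted p under 0.05 there were 415 genes, and DESeq2 called 19. Frmd8 had a log2 difference of -2.15 (Cre+ minus Cre-, adjusted p = 0.985, edgeR), with both Cre+ mice below both Cre- mice, and was among the 19 calls of DESeq2. Leaving out Cre+ replicate 2 gave 18 calls in edgeR and leaving out Cre+ replicate 4 gave 1. With low-mitochondrial barcodes left out there were 0.

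The gene nearest the threshold was a, which encodes the agouti signaling protein of coat color. It stood at 0.098 and 0.237 CPM in the cycling cells of the Cre- mice and at 249 and 134 CPM in those of the Cre+ mice (adjusted p = 0.097, edgeR). It was called with DESeq2, without the low-count filter (adjusted p = 2.33e-07, edgeR) and within the study's limits (adjusted p = 0.0283, edgeR). It was as uneven in the all-0 cells, at 0.317 and 0.0976 against 574 and 105 CPM. The study shows coat color as a sign of genotype in these littermates, beside genotyping by PCR. The other genes named as higher in Cre+ were highest in replicate 4. Scgb2b27 was 20.9, 29.8, 74.2 and 2037 CPM, and Asprv1, a protease of the epidermis, was 12.0, 7.99, 15.4 and 178 CPM. Tnfrsf19 was 6.47, 4.83, 13.8 and 106 CPM. Among the lower genes, the protease inhibitor gene Slpi was 324, 859, 145 and 39.4 CPM and the metalloprotease gene Adamts1 was 21.8, 85.1, 13.8 and 5.55 CPM. The adjusted p of these genes was 0.985 (edgeR), and DESeq2 called Slpi (adjusted p = 0.0159) and Tnfrsf19 (adjusted p = 0.0178). The genotypes had to be apart for a gene to be named here.

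The S and G2/M lists had median differences near 0 between genotypes. Genes whose 2 Cre+ mice both lay above the 2 Cre- mice made up 12.6% of all genes tested, and those with both below 18.4%. Of the 67 G2/M genes, 11 were higher in both Cre+ mice and 3 lower, with a median log2 difference of 0.06. Of the 50 S phase genes, 10 were higher and 2 lower (median 0.13). Of 20 G1 regulators, 6 were higher in both Cre+ mice and 5 lower, with a median of 0.0032. Ccnd1 was 250, 166, 373 and 424 CPM, a log2 difference of 1.02 (SE 0.30, adjusted p = 0.985, edgeR). Cdk6, its kinase partner, was 12.9, 15.1, 23.2 and 24.1 CPM (0.83, SE 0.24). Cdkn1a was 102, 113, 58.0 and 68.5 CPM (-0.69, SE 0.24). In these 3 genes the genotypes did not overlap, and none passed the adjusted threshold. Interferon-stimulated genes had a median of 0.84, with 7 of 17 higher in both Cre+ mice and 0 lower, and replicate 4 was the highest library in Isg15 at 64.1, 79.7, 89.6 and 212 CPM.

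Whether the difference between cycling and all-0 cells itself depended on genotype was tested with an interaction term. Of 13560 genes, 0 passed (0.0%), 361 had an unadjusted p under 0.05, and DESeq2 called 11. The smallest adjusted p in edgeR was 0.238, for Fgg, a fibrinogen chain named after its values were seen, at 46.9, 12.3, 133 and 3.67 CPM in cycling cells and 110, 20.5, 20.1 and 0.64 CPM in all-0 cells. Fgg was lower in cycling cells of both Cre- mice and higher in those of both Cre+ mice, and DESeq2 called it. Pgr had the same pattern of sign (interaction 2.19, SE 0.42, adjusted p = 0.999, edgeR). Its log2 ratios of cycling to all-0 CPM, with a constant added to both, were -0.85 and -0.90 in Cre- and 1.07 and 0.06 in Cre+ mice. Pgr was at 0.156 CPM in the cycling cells of Cre+ replicate 4, so that value rests on few molecules. The added constant is larger than the Pgr level in the cycling cells of Cre- replicate 3 and Cre+ replicate 4, and draws their ratios toward 0. Leaving out Cre+ replicate 2 gave 516 calls, and leaving out Cre+ replicate 4 gave 2.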

How the data were processed

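Sorted tumor cells of 4 mice were sequenced with 10x 3' v3 chemistry. What the authors deposited are raw counts of UMIs for each gene in each barcode, made with Cell Ranger and not normalized. The file headers name version 6.1.2 for replicates 1 to 3 (called cells) and Cell Ranger 4 for replicate 4 (all barcodes). The submitters' processing notes name the build hg38, although the gene identifiers are mouse. The 4 deposited count matrices held 112729231 to 157662955 UMIs.

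Cells were gated as described above, without an upper limit on depth. Counts were summed per library and class and tested with the quasi-likelihood test of edgeR 4.0.16. It used TMM, filterByExpr and Benjamini-Hochberg over all genes, with a threshold of 0.05. CPM were taken over all UMIs of the summed class. The mouse was a block in the comparison of cycling with all-0 cells, since both come from 1 mouse. Deviations of the 2 classes from their means correlated at 0.745, 0.774, 0.548 and 0.702 within mice, over 7623 genes. Genotypes were compared without a block. Shares were compared by exact permutation over mice. DESeq2 1.42.0, other size factors, filters, gates and left-out replicates were alternatives, and those on low-mitochondrial barcodes were added after the data were seen. Each p rests on 4 mice. Genes were named as members of the gate or of 22 lists, or by size outside them. In the comparison of classes this took up to 15 genes per direction at 20 CPM or more that moved alike in 4 mice, and between genotypes up to 5 per direction at 50 CPM or more with an unadjusted p under 0.05 and no overlap. Members and lists were chosen with earlier results of these data known.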

Additional observations from a re-analysis of the deposited data

How the results depend on the processing

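The counts of genes higher and lower in cycling cells (3120 and 3037) stayed within 1.5 times of these values under DESeq2, other size factors, no low-count filter, a gate on thinned cells, matched depth and without low-mitochondrial barcodes. With the study's limits on depth and genes they were 1935 and 1862, and without the replicate block they were 1943 and 1185. Leaving out 1 replicate gave 2203 to 3373 higher and 1686 to 2988 lower, the lowest count in each without Cre- replicate 1, and 1941 lower without Cre- replicate 3. Of 30 genes named by size, 15 of 480 values lost their call, 8 of them in Wfdc12 and the others without the block, and 0 reversed.

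Between genotypes, the 0 calls became 19 with DESeq2, 4 without the low-count filter, 4 with the study's limits and 0 to 18 without 1 replicate. For the interaction, the 0 calls became 11, 1, 3 and 0 to 516 in that order. No paired analysis was possible for genotype because the genotypes share no replicate number. The difference in cycling share, 2.31 points, was -2.27 without low-mitochondrial barcodes and -5.11 to 9.74 without 1 replicate, negative without Cre- replicate 1 (-0.852) and without Cre+ replicate 4. The other alternatives kept it between 0.938 and 4.36. The causes were not tested. With 2 mice per genotype, an exact test could not go below p = 0.333, and cell counts of 120 to 483 limit the precision of each share.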
